A study of Mus musculus with 72 samples.

Results

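Gene expression was compared between replicates 1 and 2 and replicates 3 and 4 of 1 mouse embryonic stem cell line, E14TG2a, labeled with 4sU (4-thiouridine, a uridine analog that cells build into new RNA) at 500 µM for 20 min. These are 16 of the 72 libraries at hand, chosen by labeling time, dose and replicate number alone. Each replicate number covers 4 libraries, made from nuclear, cytosolic, membrane and whole-cell RNA, so that 2 libraries stood against 2 in each fraction. The cells carried no further genetic change named in the labels. All replicates were grown on gelatin in a medium with serum, LIF (leukemia inhibitory factor), CHIR99021 (an inhibitor of GSK3) and PD0325901 (an inhibitor of MEK), and replicates were passaged independently. Cycloheximide, which arrests ribosomes, was in the extraction buffers, part of each lysate was set aside as whole-cell extract, and the rest was fractionated with detergents. Because the 4 libraries of a replicate come from 1 culture, the 16 libraries hold 4 cultures. Nothing in the labels says what differed between the 2 pairs of cultures, and culture, handling and library preparation cannot be told apart as the source of a difference.

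Mouse embryonic stem cells in 2 inhibitors and LIF are kept in a state close to the naive epiblast, which rests on factors such as Pou5f1, Sox2 and Nanog. In such cells a set of germline genes is kept at a low level by repressive complexes that bind E-box promoters. Cells also adjust the production of folding enzymes of the endoplasmic reticulum, of amino acid metabolism and of cholesterol to their supply and load, through transcription factors that bind short promoter elements. Transcripts of secreted and membrane proteins are translated at the endoplasmic reticulum and are recovered in the membrane fraction, together with mitochondrial RNA, while RNA that has not yet been exported is recovered in the nucleus.

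Promoter sequences of genes that differed are shown first, since members of 3 gene groups share an element at their start. Promoters of 300 bases, 250 before and 50 after the start of the gene, were taken from RefSeq on GRCm38.p6, and both strands were searched. The elements were chosen after the differences were known. The ER stress element (CCAAT, 9 bases of any kind and CCACG) was in the promoters of 8 of 17 genes of the endoplasmic reticulum stress list (47.1%) and of 37 of 27025 genes in all (0.137%). In the following stretches of 30 bases, given on the strand of the gene, capitals mark the element. Hspa5 and Pdia6 lie on the plus strand (chr2:34772020-34772049 and chr12:17266486-17266515), and Hsp90b1 and Canx on the minus strand (chr10:86705632-86705661 and chr11:50325794-50325823).
Hspa5: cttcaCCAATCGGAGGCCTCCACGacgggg
Pdia6: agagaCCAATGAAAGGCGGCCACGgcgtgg
Hsp90b1: caagcCCAATCGCAAGGAGCCACGcttcgg
Canx: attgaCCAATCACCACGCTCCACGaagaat

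The C/EBP-ATF element (TTGCATCA), bound by ATF4 and its partners, was in the promoters of 7 of 28 genes of the integrated stress response list (25%) and of 1 of 9 of the amino acid and nucleoside transporter list (11.1%), against 1.03% of all genes searched. Chac1 (chr2:119351038-119351067, plus strand) and Nupr1 (chr7:126625562-126625591, minus strand) carry it on the strand of the gene. Pycr1 (chr11:120643833-120643862, minus strand) carries it on the opposite strand, so that its complement stands in capitals. All 3 of these genes rose, whereas Slc7a11 (chr3:50443642-50443671, minus strand) and Vldlr, which also carry the element, fell, and Atf3 and Slc1a4 were not called.
Chac1: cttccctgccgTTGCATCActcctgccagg
Nupr1: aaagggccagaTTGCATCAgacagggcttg
Pycr1: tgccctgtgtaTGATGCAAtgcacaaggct
Slc7a11: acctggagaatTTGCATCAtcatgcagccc

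An E-box (CACGTG) was in the promoters of 12 of 27 germline genes (44.4%) and of 8.09% of all genes searched. It is shown for Sycp1 (chr3:102936177-102936206, minus strand), Ddx4 (chr13:112652322-112652351, minus strand), Stk31 (chr6:49395472-49395501, plus strand) and Brdt (chr5:107331104-107331133, plus strand), which rose. Of the others that carry it, Sycp3 fell and Taf7l was not called. The sterol regulatory element (ATCAC followed directly by CCCAC) was in the promoters of 0 of 17 genes of the cholesterol list and of 0.0999% of all genes searched. A match is a description of letters in this window and says nothing of binding.
Sycp1: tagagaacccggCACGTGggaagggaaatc
Ddx4: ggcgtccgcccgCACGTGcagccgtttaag
Stk31: aggccggccaccCACGTGaccagggctgcg
Brdt: cgcaggcacagtCACGTGgcagaccctggc

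Library totals over genes ran from 17144343 to 52975732 reads (median 21419866.5), and the deepest library was the nucleus of replicate 4. The libraries carried the RNA of their labeled cell type and fraction. Pou5f1 and Sox2, core factors of pluripotency, were detected in every library, mt-Co1 was highest in the membrane libraries and Malat1 in the nuclear libraries. Replicates 1 and 2 differed from replicates 3 and 4 in RNA makeup as well. Of the T bases read over exons and introns, introns held 11.1% and 8.70% in the cytosol of replicates 1 and 2 against 3.66% and 4.76% in replicates 3 and 4, and 17.3% and 19.5% against 9.87% and 13.8% in whole cells. In the nucleus, replicate 3 stood apart with 40.0%, against 29.3%, 30.2% and 29.1% in replicates 1, 2 and 4. Mitochondrial genes held 16.5% and 14.2% of gene counts in the membrane libraries of replicates 1 and 2 against 9.39% and 9.44%, and 7.92% and 5.83% against 3.52% and 4.21% in whole cells. Neat1, a long noncoding RNA retained in the nucleus, stood at 144 and 179 CPM (read counts scaled to a common library size) in the cytosol of replicates 1 and 2 and at 18.9 and 33.7 CPM in that of replicates 3 and 4, whereas cytosolic Malat1 overlapped between the pairs (116 and 93.8 against 63.9 and 130.1 CPM). The part of these differences in the results on single genes was not tested.

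Over all fractions together, many genes differed between the 2 pairs of cultures, and most of those that differed were lower in replicates 3 and 4. Of 17190 genes tested, 4883 were called (28.4%), of which 1230 rose (7.16%) and 3653 fell (21.3%) in replicates 3 and 4 over replicates 1 and 2. A call needed a Benjamini-Hochberg adjusted p under 0.05 in edgeR's quasi-likelihood test and an absolute log2 fold change over 0.5, with fraction as a term. Differences over 1 on the log2 scale were found for 405 higher and 1633 lower genes, and over 2 for 66 and 222. The test treats the 16 libraries as separate, although they come from 4 cultures. With culture as a random replicate block in limma, 1266 genes rose (7.36%) and 3640 fell (21.2%), 28.5% in all. That fit estimated the correlation within a culture at 0.00059, so the block could hardly change the count. With the nuclear, cytosolic and membrane counts summed to 1 library per culture, 2 against 2, 435 rose (2.34%) and 848 fell (4.55%) of 18625 tested, 6.89% in all. The nuclear library held 52.5% of the summed reads of replicate 4 against 22.8% to 30.2% in the other 3 cultures. With each of the 12 fraction libraries first thinned to 17826062 reads, an alternative added after seeing the data, 1089 rose (6.1%) and 2107 fell (11.8%) of 17846 tested, 17.9% in all. For lists, both sums are given, the planned one and the one at equal depth. In bulk samples, fewer cells of a type and less RNA per cell cannot be told apart. The share of lower calls was 74.8%, and it was 66.7% with libraries scaled within each fraction and 60.7% with offsets for exon length. The median log2 fold change of all genes was -0.10, and -0.03 with libraries scaled within each fraction.

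A smaller set differed in every fraction in 1 direction. There were 118 genes called higher (0.686%) and 357 called lower (2.08%) in all 4 fractions, 2.76% in all. Among the higher genes were the surface protein gene Ly6a, the neural and eye transcription factor gene Pax6 and a group of germline genes. Among the lower genes were the Nodal antagonists Lefty1 and Lefty2, the hormone precursor gene Trh and the lactate transporter gene Slc16a3. All 475 kept their sign and their joint call when any 1 replicate was left out, and 393 were also called in the planned sum per culture and 473 in that at equal depth. These genes were chosen by calls in the same libraries, so that this agreement follows in part from the choice. The count itself fell to 111 without replicate 3, and to 226, 257 and 278 without replicates 4, 2 and 1. Protein-coding genes made up 105 of the 118 and 337 of the 357, against 13918 of 17190 of all genes tested, and X-linked genes 3.39% and 5.88% against 3.41%.

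Ly6a (chr15:74994877-74998031), which encodes the surface antigen Sca-1, had the largest rise of the 14 higher genes named for all 4 fractions. It stood at 9.47 and 5.65 CPM in the membrane of replicates 1 and 2 and at 95.1 and 54.5 CPM in replicates 3 and 4. In whole cells it stood at 3.79 and 2.77 against 37.7 and 26.5 CPM, in the nucleus at 1.18 and 1.09 against 8.86 and 8.16 CPM and in the cytosol at 0.397 and 0.16 against 7.61 and 5.18 CPM. Both libraries of replicates 3 and 4 lay above both of replicates 1 and 2 in each fraction, and the joint log2 fold change was 3.38 ± 0.21 (SE, adjusted p = 6.7e-10, edgeR). Pax6 (chr2:105668900-105697364) stood at 4.58 and 2.06 CPM in whole cells of replicates 1 and 2 against 16.4 and 13.3 CPM, and at 3.96 and 3.69 against 12.9 and 14.2 CPM in the nucleus. In the cytosol it was at 4.10 and 2.36 against 22.2 and 16.8 CPM and in the membrane at 3.68 and 2.83 against 15.3 and 15.4 CPM, again without overlap (2.20 ± 0.17, adjusted p = 1.2e-08, edgeR). Skida1 followed at 2.07, Cd37, a tetraspanin of blood cells, at 1.91, Rims1, a scaffold of the presynaptic zone, at 1.87, and Hal, which breaks down histidine, at 1.72 on the log2 scale.

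**Figure D1:**
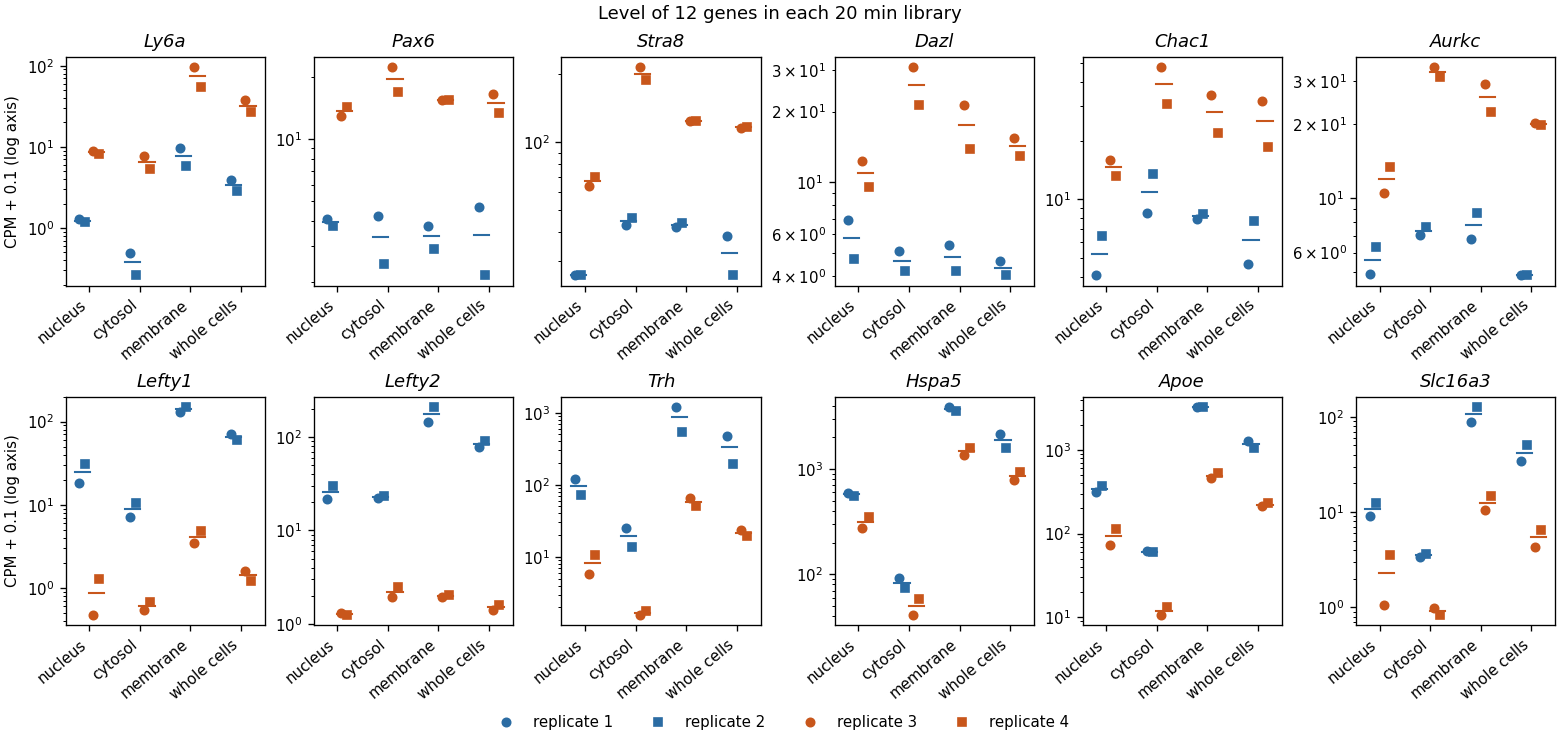
Levels in CPM (with 0.1 added, log axis) of 12 genes in the 16 libraries, by fraction, with circles and squares for the 2 replicates of a pair and short lines for their mean. Blue marks replicates 1 and 2 and orange replicates 3 and 4. The 12 genes are picked examples. In none of them did the pairs overlap in any fraction, from Ly6a (95.1 and 54.5 CPM in the membrane of replicates 3 and 4 against 9.47 and 5.65) to Lefty1 (3.36 and 4.73 against 129.7 and 150.0).

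Germline genes were the group with the most higher calls. Of 32 germline genes tested, 21 rose and 2 fell, with a median log2 fold change of 1.17, against -0.10 over all genes, of which 7.16% rose and 21.3% fell. Of these, 7 rose in all 4 fractions, with 20 higher and 0 lower in the planned sum per culture and 22 and 2 at equal depth. Over all genes 0.686% rose in all 4 fractions. In the planned sum 2.34% of all genes rose and 4.55% fell, and at equal depth 6.1% and 11.8%. Stra8 (chr6:34920163-34939344), which is induced by retinoic acid at the entry into meiosis, stood at 43.0 and 46.4 CPM in the cytosol of replicates 1 and 2 and at 214 and 187 CPM in replicates 3 and 4. It stood at 25.8 and 25.7 against 64.0 and 70.4 CPM in the nucleus, at 42.2 and 43.7 against 124 and 124 CPM in the membrane and at 38.5 and 25.9 against 116 and 117 CPM in whole cells. The pairs did not overlap in any fraction (1.74 ± 0.12, adjusted p = 2.2e-09, edgeR). Dazl (chr17:50279395-50293636), an RNA-binding protein of germ cells, rose from 4.98 and 4.08 CPM to 30.7 and 21.2 CPM in the cytosol and from 4.52 and 3.91 CPM to 15.3 and 12.9 CPM in whole cells. Its nuclear levels were closer, at 6.79 and 4.61 against 12.2 and 9.49 CPM, and its membrane levels were 5.30 and 4.10 against 21.2 and 13.8 CPM (joint 1.77 ± 0.19, adjusted p = 8.9e-07, edgeR).

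Further genes of meiosis were higher in all 4 fractions. These were Sycp1, a component of the synaptonemal complex that joins paired chromosomes (2.18), Tex11, which acts in recombination (1.66), the meiotic kinase gene Aurkc (1.77), the histone reader gene Zcwpw1 (1.73) and the testis tubulin gene Tuba3a (1.95). Tuba3a and Tuba3b (4.01) are near-identical, and reads shared by both copies were not counted on either, so that their values are uncertain. Brdt, a chromatin reader of spermatocytes, rose by 2.26 at a mean of 1.32 CPM. Ddx4 (1.61) and Stk31 (1.83), shown above for their promoters and chosen after their values were seen, also rose. Sycp3, another component of the synaptonemal complex, fell by 0.85 and Rpl10l, a ribosomal protein copy used in the testis, fell by 0.62. No germline gene was called lower in all 4 fractions.

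A pair of other lists rose in part. Of 12 retinoic acid targets, 5 rose and 3 fell, where 7.16% of all genes rose and 21.3% fell. Meis2, a homeodomain transcription factor, was at 1.34 among the higher and Stra6, the receptor for retinol uptake, at -1.45 (called in neither sum). Meis2 stood at 0.926 and 1.08 CPM in the cytosol of replicates 1 and 2 and at 5.95 and 3.29 CPM in replicates 3 and 4. Of 13 genes of the 2-cell-like state tested, 8 rose and 0 fell (median 1.17), and 0 rose in all 4 fractions. Its called members belong to families of near-identical copies such as Zscan4e (2.15, mean 0.31 CPM) and Usp17lb (1.63, mean 0.30 CPM), for which counts are uncertain, and between 2 and 4 were called when 1 replicate was left out.

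Genes of the integrated stress response, by which ATF4 raises amino acid synthesis, moved in both directions. Of 32 tested, 11 rose and 5 fell (median 0.35), and 7 rose in all 4 fractions, with 5 higher and 1 lower in the planned sum per culture and 11 and 2 at equal depth. Among all genes, 7.16% rose and 21.3% fell jointly, and 0.686% rose in all 4 fractions. In the planned sum 2.34% rose and 4.55% fell, and at equal depth 6.1% and 11.8%. Chac1 (chr2:119351229-119354381), which degrades glutathione, stood at 8.38 and 13.3 CPM in the cytosol of replicates 1 and 2 and at 47.4 and 30.9 CPM in replicates 3 and 4. In the nucleus it stood at 3.96 and 6.37 against 15.9 and 13.1 CPM, in the membrane at 7.84 and 8.34 against 34.0 and 21.9 CPM and in whole cells at 4.58 and 7.60 against 31.9 and 18.5 CPM (1.79 ± 0.17, adjusted p = 1.8e-07, edgeR). The pairs did not overlap. Pycr1, an enzyme of proline synthesis, stood at 7.92 and 8.75 CPM in the nucleus against 26.0 and 25.3 CPM and rose by 1.20 jointly. Among the members that fell were the large neutral amino acid transporter gene Slc7a5 (-0.96), the cystine transporter gene Slc7a11 (-0.92, called in neither sum) and Vldlr (-0.66). The amino acid and nucleoside transporter list also held lactate transporter genes. Of its 13 tested genes, 8 fell and 0 rose (median -0.96), with Slc38a2, a transporter of small neutral amino acids, at -1.56. The lactate transporter genes Slc16a3 and Slc16a1 were at -2.67 and -1.20.

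**Figure D2:**
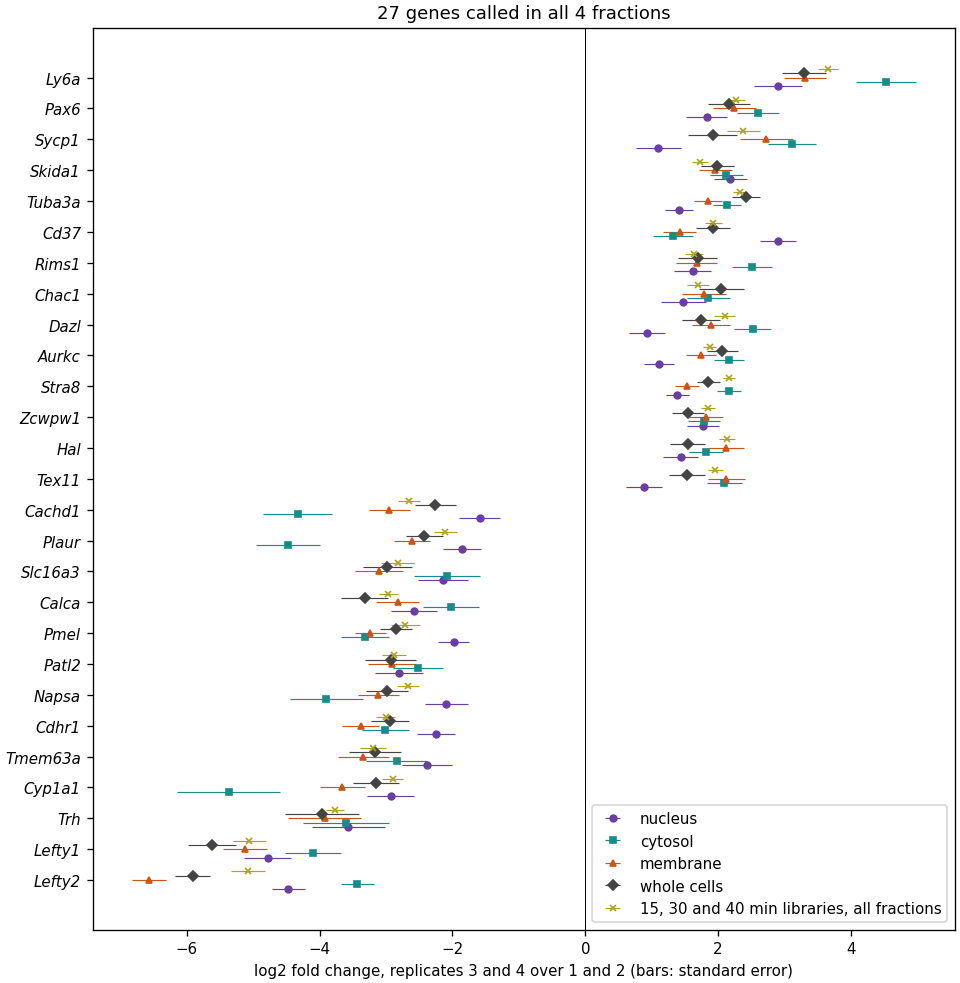
Log2 fold change of replicates 3 and 4 over replicates 1 and 2 for 27 genes named by the rule for all 4 fractions, 14 higher and 13 lower, with 1 marker per fraction and crosses for the libraries of 15, 30 and 40 min. Every marker lies on the same side of 0 for a given gene, which the choice of these genes requires for the 4 fractions. The joint values run from -5.14 for Lefty2 to 3.38 for Ly6a.

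Lefty1 and Lefty2, secreted antagonists of Nodal and neighbours on chromosome 1 (180935022 to 180938400 and 180893108 to 180899103), had the largest falls of the genes named by the rule. Lefty1 stood at 129.7 and 150.0 CPM in the membrane of replicates 1 and 2 and at 3.36 and 4.73 CPM in replicates 3 and 4. In whole cells it stood at 70.1 and 60.3 against 1.52 and 1.12 CPM, in the nucleus at 18.4 and 30.7 against 0.375 and 1.17 CPM and in the cytosol at 7.10 and 10.4 against 0.439 and 0.575 CPM. Both pairs were far apart in each fraction, and the gene fell by 5.03 ± 0.22 on the log2 scale (adjusted p = 8.8e-12, edgeR). Lefty2 stood at 144 and 211 CPM in the membrane against 1.82 and 1.92 CPM and at 78.2 and 91.1 against 1.31 and 1.49 CPM in whole cells. Its levels in the nucleus were 21.7 and 30.2 against 1.21 and 1.14 CPM and in the cytosol 22.0 and 23.4 against 1.85 and 2.35 CPM (-5.14 ± 0.33, adjusted p = 1.1e-09, edgeR). The 2 genes are similar in sequence, and reads that fit both equally were not counted. Of 19 targets of TGF-beta, Nodal and BMP signaling, 9 fell and 2 rose (median -0.60), and 6 fell in all 4 fractions. Among all genes, 21.3% fell and 7.16% rose, and 2.08% fell in all 4 fractions.

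Trh and further genes named by the rule were lower in every fraction. Trh (chr6:92242061-92244650), the precursor of thyrotropin-releasing hormone, stood at 1205 and 549 CPM in the membrane of replicates 1 and 2 and at 64.7 and 51.1 CPM in replicates 3 and 4. It stood at 468 and 196 against 23.3 and 19.09 CPM in whole cells, at 122 and 72.7 against 5.62 and 10.4 CPM in the nucleus and at 24.8 and 13.4 against 1.46 and 1.67 CPM in the cytosol. Replicate 1 lay above replicate 2 in each fraction, and both lay above replicates 3 and 4 (-3.78 ± 0.23, adjusted p = 5.2e-10, edgeR). Cyp1a1, which the aryl hydrocarbon receptor induces, was at -3.36, the ion channel gene Tmem63a at -2.94, the cadherin gene Cdhr1 at -2.89 and the protease gene Napsa at -2.86. Patl2, a translational repressor of oocytes, was at -2.80, the melanosome gene Pmel at -2.79, the calcitonin gene Calca at -2.75, the urokinase receptor gene Plaur at -2.52 and Cachd1 at -2.51. In whole cells Cyp1a1 stood at 11.2 and 13.6 CPM against 1.44 and 1.36 CPM, and in the cytosol it was close to or at 0 in replicates 3 and 4 (0 and 0.0523 CPM).

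Folding enzymes of the endoplasmic reticulum fell together in count. Of 20 genes of the endoplasmic reticulum stress list, 17 fell and 0 rose (median -0.86), 6 of them in all 4 fractions, with 5 lower in the planned sum per culture and 17 at equal depth. Over all genes 21.3% fell and 7.16% rose jointly, and 2.08% fell in all 4 fractions. In the planned sum 4.55% of all genes fell, and 11.8% at equal depth. The list's medians were -0.36 (nucleus), -0.75 (cytosol), -1.12 (membrane) and -0.98 (whole cells). A set of 2028 genes not chosen by function, higher in the membrane than in the nucleus (below), had -0.20, -0.91, -1.03 and -0.76. Membrane medians were -1.275, -0.94 and -1.39 for the transporter, cholesterol and matrix lists. How far these lists share 1 fall with that set was not tested. Hspa5, the main chaperone of this compartment, stood at 3899 and 3543 CPM in the membrane of replicates 1 and 2 and at 1371 and 1598 CPM in replicates 3 and 4. It stood at 2176 and 1588 against 789 and 940.3 CPM in whole cells, at 591 and 559 against 275 and 351 CPM in the nucleus and at 91.9 and 74.1 against 41.0 and 57.9 CPM in the cytosol. The pairs did not overlap (-1.02 ± 0.13, adjusted p = 4.9e-06, edgeR), but the planned sum per culture did not call the gene (-0.80). The disulfide isomerase gene Pdia6 (-1.21), the chaperone gene Hsp90b1 (-1.07), Hyou1 (-1.18) and the ubiquitin ligase gene Syvn1 (-1.07, not called in the planned sum at -0.36) also fell. The members not called were Atf6, Xbp1 and Herpud1, named here after their values were seen.

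Genes of lipid supply were lower too. Of 25 genes of cholesterol synthesis and uptake, 14 fell and 0 rose (median -0.69), 5 in all 4 fractions, with 6 lower in the planned sum per culture and 13 at equal depth. Among all genes, 21.3% fell and 7.16% rose jointly, and 2.08% fell in all 4 fractions. In the planned sum 4.55% fell, and 11.8% at equal depth. Dhcr7 (chr7:143823145-143848410), an enzyme at the end of cholesterol synthesis, stood at 516 and 477 CPM in the membrane of replicates 1 and 2 and at 127 and 143 CPM in replicates 3 and 4. In whole cells it stood at 210.4 and 212 against 79.7 and 86.3 CPM, in the nucleus at 53.7 and 61.1 against 36.0 and 39.6 CPM and in the cytosol at 29.7 and 23.3 against 6.196 and 11.2 CPM. The pairs did not overlap in any fraction (-1.36 ± 0.16, adjusted p = 1.6e-06, edgeR). Of 14 genes of fatty acid synthesis, 5 fell and 0 rose, among them the desaturase gene Scd2 (-1.49 ± 0.18, adjusted p = 2.4e-06, edgeR) and the regulator Srebf1 (-1.33, not called in the planned sum at -0.32). Scd2 stood at 6882 and 6291 CPM in the membrane of replicates 1 and 2 against 1319.9 and 2399 CPM, and at 3615 and 3636 against 1356 and 1574 CPM in whole cells, without overlap.

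Interferon-responsive and metal-responsive genes were lower in part. Of 18 interferon-responsive genes, 8 fell and 1 rose (median -0.43), and 5 fell in all 4 fractions. Over all genes 21.3% fell and 7.16% rose, and 2.08% fell in all 4 fractions. Ifitm1, a restriction factor of the cell membrane, stood at 231 and 158 CPM in the membrane of replicates 1 and 2 against 60.4 and 40.4 CPM in replicates 3 and 4, and fell by 1.87 jointly. B2m and H2-K1, the chains of class I antigen presentation, were at -1.46 and -1.34, and the tetherin gene Bst2 at -1.48. Of 11 metal-responsive genes, 8 fell and 0 rose (median -0.74), with the transferrin receptor gene Tfrc at -1.19 and the metallothionein gene Mt1 at -1.03. Of 37 genes of hypoxia and glycolysis, 13 fell and 1 rose (median -0.21), with between 8 and 14 lower when 1 replicate was left out. The lower members included Aldoc at -1.17 and P4ha1 at -0.84. Egr1, an immediate early gene and ERK target, was at -1.76 at a mean of 0.74 CPM, and Spry4, an ERK inhibitor, rose by 1.18 in all 4 fractions.

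Among markers of other cell types, those of matrix, primitive endoderm and fibroblasts had lower calls and no higher ones. Over all genes 7.16% were called higher and 21.3% lower jointly, and 2.08% lower in all 4 fractions. In the planned sum 4.55% were called lower, and 11.8% at equal depth. Of 22 genes of basement membrane and matrix, 17 fell and 0 rose (median -0.91), but 1 in all 4 fractions, Loxl2, with 7 lower in the planned sum per culture and 14 at equal depth. The laminin gene Lama5 fell to 9.66 and 15.4 CPM in the cytosol from 72.8 and 71.6 CPM, while its nuclear levels were 318 and 322 against 264 and 319 CPM, and the planned sum did not call it (-0.24). Of 16 tested primitive endoderm markers, 9 fell and 0 rose. The summed level of the whole list, with the lower library of a pair first, was 4558 and 4656 CPM in the membrane of replicates 1 and 2 against 1585 and 1849 CPM. It was 1009 and 1098 against 716 and 787 CPM in the nucleus, 206 and 225 against 53.8 and 77.2 CPM in the cytosol and 2589 and 3165 against 1293 and 1402 CPM in whole cells. Apoe, a member of this list, held a large part of this sum and of its fall. Apoe stood at 3258 and 3266 CPM in the membrane of replicates 1 and 2 against 466 and 524 CPM, and it fell in all 4 fractions (-2.33 ± 0.14, adjusted p = 4.8e-10, edgeR). Its nuclear mean fell from 340 to 93.1 CPM. Single genes and sums are scaled differently, so its exact share was not computed. By gene, the list's median log2 fold changes were -0.107 (nucleus), -1.29 (cytosol), -0.999 (membrane) and -0.504 (whole cells). The defining markers Sox17, Foxa2, Afp and Ttr did not pass the filter on low counts. Of 10 tested fibroblast or feeder markers, 6 fell and 0 rose, with Thy1 (-2.03) among the lower. The summed level of the whole list, again with the lower library first, was 626 and 662 CPM against 237 and 265 CPM in the cytosol and 1730 and 1796 against 770.5 and 840.1 CPM in the membrane. In the nucleus it was 1516 and 1537 against 1349 and 1350 CPM, and in whole cells 1499 and 3134 against 1266 and 1444 CPM, with Col1a2, Col3a1, Dcn, Lum and Postn below the filter. Of the other lists, 3 of 3 blood markers fell, 1 of 6 trophoblast and 2 of 10 mesoderm markers rose, and 2 of 8 neural markers rose and 3 fell, on few genes a list. Their part in the result was not tested.

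**Figure D3:**
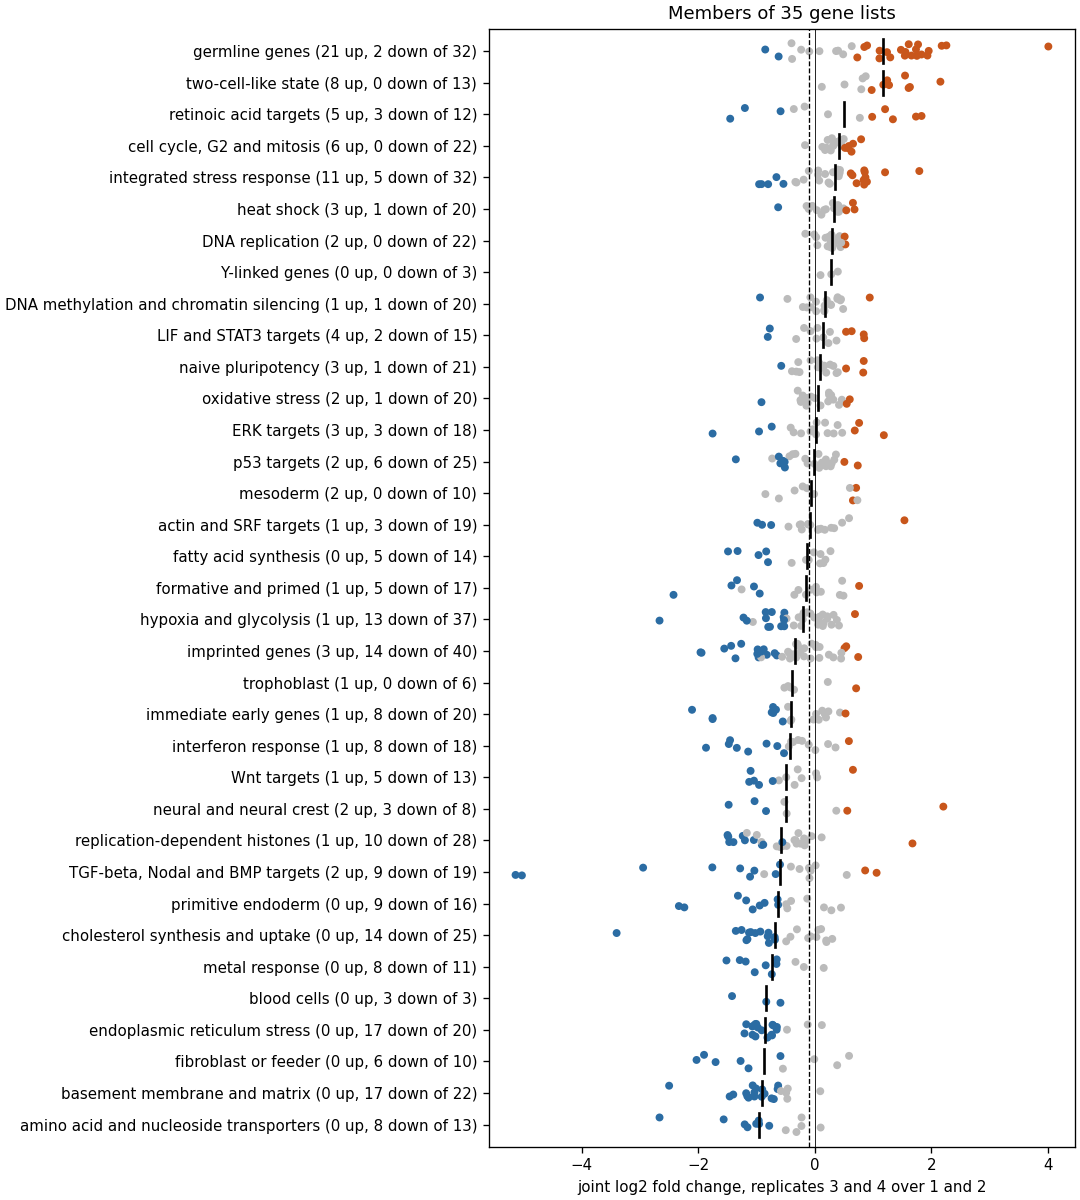
Joint log2 fold change of each tested member of 35 gene lists, 1 point per gene, with the list's median and the counts of called members beside its name. The germline list lies mostly to the right of 0 (21 of 32 called higher) and the endoplasmic reticulum stress list to the left (17 of 20 called lower).

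Among pluripotency factors Pou5f1 and Sox2 were not called jointly, and Nanog rose. Of 21 genes of naive pluripotency, 3 rose and 1 fell jointly (median 0.09), and 0 did so in all 4 fractions. In whole cells 8 rose and 1 fell (median 0.29), where 7.32% of all genes were called higher. Pou5f1 stood at 934 and 626 CPM in whole cells of replicates 1 and 2 and at 1185 and 1029 CPM in replicates 3 and 4, with a joint difference of 0.19 ± 0.15 (adjusted p = 0.33, edgeR). Its fractions moved in opposite directions. Its mean fell from 576 to 404 CPM in the nucleus. It rose from 1724 to 2581 CPM in the cytosol and from 1301 to 1484 CPM in the membrane, without overlap in these fractions. Sox2 stood at 276 and 277 CPM in whole cells against 355 and 283 CPM, but at 356 and 357 against 326 and 339.9 CPM in the membrane, and was not called (0.11 ± 0.10, adjusted p = 0.43, edgeR). Nanog rose from 458 and 433 CPM to 888 and 809.5 CPM in whole cells, from 598 and 686 CPM to 1607 and 1327 CPM in the cytosol and from 532 and 536 CPM to 1003 and 990.5 CPM in the membrane. Its nuclear levels were 359.7 and 374 against 414 and 486 CPM (joint 0.83 ± 0.12, adjusted p = 2.9e-05, edgeR), and the planned sum per culture did not call it (0.78). Gbx2 (0.84) and Klf5 (0.54) rose and Fgf4 (-0.58) fell, none of them called in the planned sum and Gbx2 alone called at equal depth. Of 17 formative and primed genes, 5 fell and 1 rose, near the shares over all genes (21.3% and 7.16%), with Cldn6, a tight junction protein, at -2.43 in all 4 fractions.

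Genes of proliferation had more higher calls in each fraction outside the nucleus than jointly. Of 22 genes of G2 and mitosis, 6 rose and 0 fell (median 0.41), among them the spindle gene Prc1 (0.79) and Top2a (0.65), with between 3 and 12 higher when 1 replicate was left out, the fewest without replicate 1. In the cytosol 13 rose, in whole cells 13, in the membrane 8 and in the nucleus 1. Over all genes 7.16% rose jointly, 14.9% in the cytosol, 7.32% in whole cells, 4% in the membrane and 3.54% in the nucleus. Of 22 genes of DNA replication, 2 rose jointly, Mcm7 (0.52) and Mcm4 (0.51), called in neither sum per culture, against 7.16% of all genes. In the cytosol 14 of the 22 rose, where 14.9% of all genes did, and in the membrane and in whole cells 6 each, while 0 rose in the nucleus. Of 20 heat shock genes, 3 rose and 1 fell jointly, with Hsp90aa1 at 0.68, and 9 rose in the cytosol, 10 in whole cells, 5 in the membrane and 0 in the nucleus. In the libraries of 15, 30 and 40 min, where 19% of all genes were called higher, 18 of the 22 replication genes and 13 of the 20 heat shock genes rose. The Y-linked genes Ddx3y (0.10), Eif2s3y (0.39) and Uty (0.28) were not called jointly, nor was Xist at a mean of 0.42 CPM (-0.70). In the cytosol all 3 Y-linked genes were called higher (median 0.89), where 14.9% of all genes were. In the nucleus, the membrane and whole cells 0 of the 3 were called. Of 40 imprinted genes, 14 fell and 3 rose, where 21.3% and 7.16% of all genes did, with Nnat at -1.94 and Phlda2 at -1.96. Of the replication-dependent histone genes, 10 of 28 fell and 1 rose. Their RNA lacks the poly(A) tail used for selection and their counts were low, and between 2 and 9 fell when 1 replicate was left out.

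Taken fraction by fraction, the number of called genes was largest in the cytosol. It was smallest in the nucleus, but smallest in whole cells (1815, against 1940 in the nucleus) with each fraction fitted alone. In the nucleus 609 genes rose (3.54%) and 1083 fell (6.3%), 9.84% in all. The cytosol had 2567 higher (14.9%) and 3342 lower genes (19.4%), 34.4% in all, the membrane 688 (4%) and 3023 (17.6%), 21.6% in all, and whole cells 1259 (7.32%) and 2339 (13.6%), 20.9% in all. Without replicate 3, the counts were 323 (nucleus), 2179 (cytosol), 1818 (membrane) and 891 (whole cells). The split between directions moved with the scaling. In the membrane 81.5% of calls were lower, but 58.4% with libraries scaled within each fraction (1640 higher, 9.54%, and 2298 lower, 13.4%, of 22.9% in all) and 50.9% with no filter on low counts. In the cytosol 56.6% were lower, but 38.8% with length offsets (4058 higher, 2572 lower) and 69.0% for protein-coding genes alone. For whole cells the share was 65.0%, but 55.4% with libraries scaled within each fraction and 50.2% with length offsets. The median of all genes was -0.18 in the membrane, -0.10 in the cytosol and in whole cells and -0.02 in the nucleus.

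Most genes were called in few fractions. Of 17190 genes, 8731 were called in none, 4404 in 1, 2138 in 2, 1438 in 3 and 479 in 4 fractions. There were 290 genes called higher in one fraction and lower in another, of which 130 were higher in the nucleus and lower in the cytosol and 127 the other way round. A test of the interaction of fraction and replicate pair passed an adjusted p of 0.05 for 2465 genes (14.3%, edgeR) and for 4296 (25%) with replicate as a fixed block. It passed for 30 genes without replicate 3 and for 1237 without replicate 1.

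The nucleus stood furthest from the other fractions. In the contrast of the nuclear difference with the mean of the other 3, 1898 genes were higher (11%) and 1330 lower (7.74%), 18.8% in all. For the cytosol 1068 were higher (6.21%) and 1164 lower (6.77%), 13% in all, for the membrane 0 were higher and 1 lower (0.00582%), and for whole cells 0 and 0. In the membrane 1088 and in whole cells 1292 genes had an unadjusted p under 0.05, and DESeq2 called 33 and 3. Without replicate 3, 328 of the 3228 nuclear genes were still called and 3228 kept their sign, and of the 2232 cytosolic genes 1 was still called and 2231 kept their sign. Without replicate 1, 583 of these cytosolic genes were still called. Of genes called in 1 fraction alone, 267 in the nucleus and 962 in the cytosol were also called in this contrast. None of the 532 called in the membrane alone or of the 743 called in whole cells alone was.

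Plec (chr15:76170974-76232574), which encodes the cytoskeletal linker plectin, moved in opposite directions. It stood at 288 and 291 CPM in the nucleus of replicates 1 and 2 and at 585 and 521 CPM in replicates 3 and 4, but at 19.7 and 21.2 against 5.27 and 6.95 CPM in the cytosol. In the membrane it stood at 33.3 and 50.7 against 14.5 and 22.6 CPM, and whole cells overlapped, at 118 and 205 against 126 and 143 CPM. The nuclear difference exceeded the mean of the others by 2.00 ± 0.28 (adjusted p = 0.00032, edgeR). Slc6a9, a glycine transporter gene (2.04), and Pom121, of the nuclear pore (1.94), gave similar contrasts, and all 3 remained called without replicate 3.

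The lower genes with the largest nuclear contrasts were the ribosomal protein genes Rpl39 and Rps3 and the prefoldin gene Pfdn4. Rpl39 stood at 457 and 438 CPM in the nucleus of replicates 1 and 2 and at 78.9 and 123 CPM in replicates 3 and 4, while its cytosolic levels were 378 and 357 against 533 and 492 CPM. In the membrane (899 and 637 against 770.1 and 469.7 CPM) and in whole cells (556 and 277 against 253 and 253 CPM) it was not called, and membrane levels overlapped. The nuclear contrast was -1.96 ± 0.33 (adjusted p = 0.00094, edgeR). Rps3, at 1502 and 1737 against 421 and 654 CPM in the nucleus, and Pfdn4 had contrasts of -1.58 and -1.59. For Rpl39, Rps3 and Pfdn4 the contrast was not called without replicate 3 (-1.52, -1.12 and -1.27).

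In the cytosol the lower genes with the largest contrasts were Lrrn2, a neuronal leucine-rich repeat protein (-3.50), the metalloprotease gene Mmp2 (-3.34) and the locus annotated as Mir5125 (-3.29), all at low counts there. Lrrn2 stood at 3.44 and 1.40 CPM in the cytosol of replicates 1 and 2 against 0.195 and 0.105 CPM, while its nuclear levels of 6.98 and 3.27 CPM overlapped with 5.33 and 6.003 CPM. The higher ones were Lefty2 (2.22), the centromere gene Itgb3bp (1.35) and the chitobiase gene Ctbs (1.29). None of the 6 was called in this contrast without replicate 3. The lower call of the membrane contrast was Lefty2 (-1.96 ± 0.27, adjusted p = 0.0075, edgeR), whose difference was -6.57 in the membrane and -3.43 in the cytosol. Meg3, a noncoding RNA of an imprinted cluster, stood at 189 and 139 against 14.1 and 23.2 CPM in the cytosol but at 429 and 421 against 400.0 and 348 CPM in the nucleus, and the planned sum did not call its joint difference (-0.37).

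Outside the nucleus the differences varied with the ratio of nucleus to cytosol. When genes were put into 4 equal groups by their ratio of nucleus to cytosol in replicates 5 and 6, which did not enter the comparison, the median log2 fold change in the cytosol was 0.29 in the group with the lowest ratio and -0.72 in that with the highest. In whole cells these medians were 0.23 and -0.63 and in the membrane 0.01 and -0.77, while in the nucleus they were -0.06 and -0.08. In the group with the highest ratio, 1887 genes were lower in the cytosol and 190 higher, against 391 and 1137 in that with the lowest. The ratio does not separate RNA held in the nucleus from RNA at the membrane. Of the genes with the highest ratio, 2028 stood higher in the membrane than in the nucleus of replicates 5 and 6, with medians of -0.91 in the cytosol, -1.03 in the membrane and -0.76 in whole cells. The other 2270 had medians of -0.48, -0.34 and -0.42, in a split added after seeing the data. The shares of intron bases and of Neat1 moved in the same libraries (above), and their part in these medians was not tested.

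**Figure D4:**
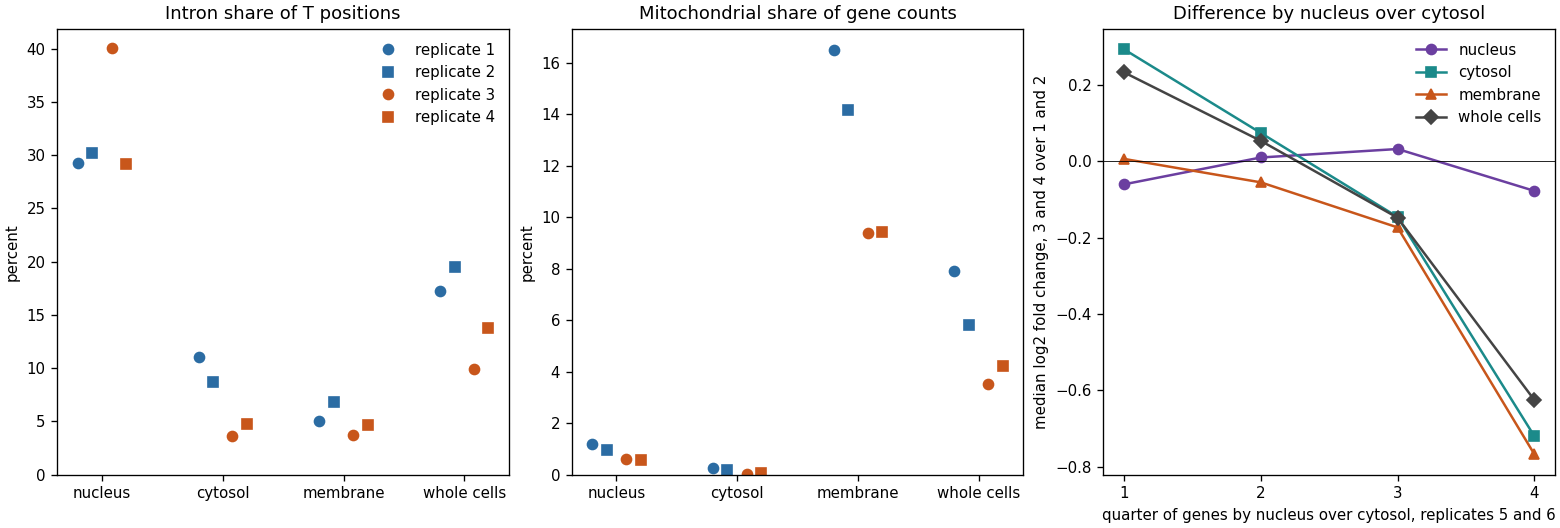
Share of T bases in introns (percent) and share of gene counts on mitochondrial genes (percent) in each 20 min library by fraction, and the median log2 fold change of genes in 4 groups from the lowest to the highest ratio of nucleus to cytosol, 1 line per fraction. Intron shares in the cytosol were 11.1% and 8.70% in replicates 1 and 2 and 3.66% and 4.76% in replicates 3 and 4. The medians run from 0.29 to -0.72 in the cytosol and from -0.06 to -0.08 in the nucleus.

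Reads over introns in the nuclear libraries, which did not enter the gene counts, moved the same way for genes that differed in all fractions. Introns with at least 400 T bases in each nuclear library were measured for 87 of the 118 higher genes, with a median log2 difference of 1.13 in their share of intron bases, and both libraries of replicates 3 and 4 lay above both of replicates 1 and 2 for 80 and below for 0. For 284 of the 357 lower genes the median was -0.60, with 199 below and 5 above. The agreement was weaker for genes called jointly. Of the higher ones 769 were measured (median 0.56), with 521 above and 42 below. Of the lower ones 2369 were measured (median -0.12), with 762 below and 340 above. Over all 12370 genes measured, 29.1% lay above and 18.7% below without overlap. Pax6 introns were higher by 2.29, those of Stra8 by 1.14 and of Dazl by 1.13, while those of Apoe fell by 1.13. For the endoplasmic reticulum genes Hspa5 (-0.31), Pdia6 (-0.48) and Hsp90b1 (-0.14) the values were smaller than the gene-level differences. The 4 nuclear libraries are those of the comparison itself, so the genes were chosen in part by their calls there. With 2 against 2 no test was made.

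The same replicates were measured in further libraries. The libraries of 15 and 30 min are of replicates 1 and 2 and those of 40 min of replicates 3 and 4, in the same 4 fractions, so that labeling time and replicate pair cannot be told apart there. Of the 4883 genes called at 20 min, 4821 were measured, 99.3% had the same sign, 87.4% were called the same way and 1 the opposite way. Over all genes measured in both, 85.3% had the same sign and 45.0% were called the same way, and 45.7% of the genes tested at these times were called. All 475 genes called in all 4 fractions kept their sign, and 474 were called the same way. Whole-cell Lefty1, on a scale set across labeling times, lay between 54.4 and 94.5 CPM in replicates 1 and 2 at 15, 20 and 30 min and between 1.00 and 2.78 CPM in replicates 3 and 4 at 20, 40 and 60 min.

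Replicates 5 and 6, labeled for 60 and 120 min only, did not lie with one of the pairs throughout. Placed on a scale from 0 (mean of replicates 1 and 2) to 1 (mean of replicates 3 and 4) in log2 CPM, a description added after the results were seen, they were nearer to replicates 1 and 2 for 68 of the 118 higher genes (median 0.41) and for 239 of the 357 lower genes (median 0.37). Ly6a (-0.08), Pax6 (0.08) and Lefty1 (0.11) lay near replicates 1 and 2. Stra8 (0.26) and Lefty2 (0.28) lay nearer to these, Dazl (0.69) and Trh (0.60) nearer to replicates 3 and 4, and Aurkc (0.97), Cyp1a1 (0.97), Tuba3a (1.16) and Chac1 (1.26) at or beyond replicates 3 and 4. In whole cells at 60 min Lefty1 stood between 29.3 and 48.8 CPM in replicates 5 and 6 and between 1.28 and 1.38 CPM in replicates 3 and 4. Labeling time and, by the labels, the dose of 4sU differ between these libraries and those of 20 min.

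**Figure D5:**
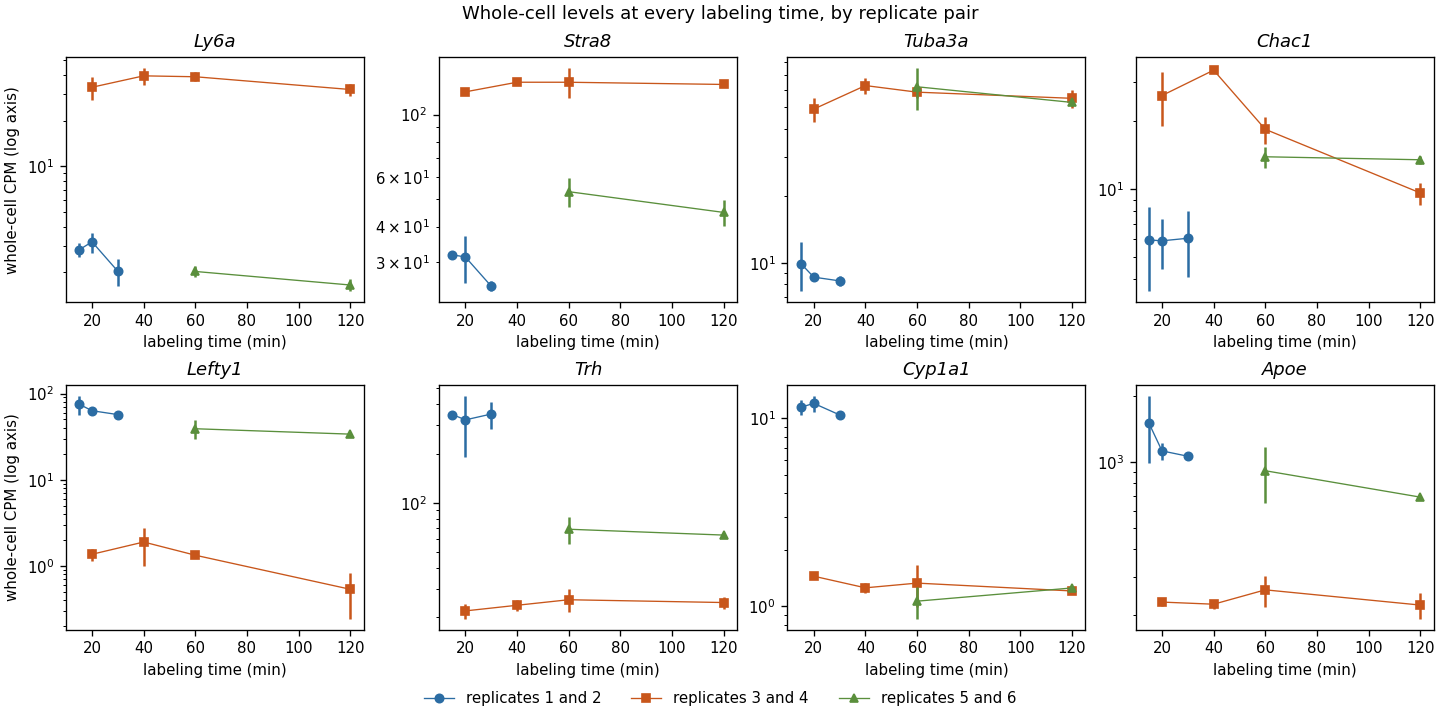
Whole-cell CPM (log axis) against labeling time in min, with points at the mean of the 2 libraries of replicates 1 and 2, 3 and 4, and 5 and 6 and bars from the lower to the higher library, scaled across all whole-cell libraries. Lefty1 at 60 min lay between 29.3 and 48.8 CPM in replicates 5 and 6 and between 1.28 and 1.38 CPM in replicates 3 and 4.

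By chromosome, the medians lay close together. The autosomes ranged from -0.19 on chromosome 5 to -0.02 on chromosome 8, a range of 0.163 on the log2 scale, and the X chromosome was at -0.14. Of the 17 mitochondrial genes tested, 13 fell and 0 rose, with a median of -1.15. The gene of cytochrome oxidase subunit I, mt-Co1, fell from 102560.0 and 86501 CPM to 42894 and 44422 CPM in the membrane and by 1.15 ± 0.17 jointly (adjusted p = 2e-05, edgeR). Of 7 Y-linked genes, 2 fell and 0 rose, where 28.4% of all genes were called. Genes per chromosome were described only, with no test.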

How the data were processed

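The authors selected poly(A) RNA, made stranded paired-end libraries and aligned reads to GRCm38 with STAR 2.7.6. The deposited read counts per gene, from HTSeq 0.11.1, are raw, as are the T bases counted over the introns of each gene. The conversion rate of each library, a fraction deposited by the authors from a mixture model, was read and enters no comparison. Members, gene lists and promoter elements were chosen with earlier results of these data known. Replicates were grouped by their label numbers. Gene identifiers were matched to GENCODE M21 (51633 of 51826, 99.6%), and 17190 genes passed filterByExpr. Counts were tested with edgeR 4.0.16 in R 4.3.3 (TMM, robust glmQLFit), checked on simulated counts. Alternatives used limma 3.58.1 and DESeq2 1.42.0. CPM values of single genes use TMM over the 16 libraries. Summed levels of lists use plain library totals and all matched members, tested or not, with the lower library of a pair given first. Reads without a unique gene (31.3% to 48.8% per library) were left out. The p-values measure the spread between libraries. Same-numbered libraries come from 1 culture, and their deviations correlated between fractions at 0.17 to 0.50 in replicates 1 and 2 and at -0.14 to 0.32 in replicates 3 and 4. Genes named are the 14 of each direction with the largest joint change among those called in all 4 fractions at 5 CPM or more on average, up to 3 of each direction per fraction contrast and up to 4 per list, beside cell type, fraction and sex markers. Some named genes are not reported here.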

Additional observations from a re-analysis of the deposited data

Results flagged for a closer look

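The difference between the replicate pairs itself differed between fractions for 2465 genes in the interaction test of edgeR. In the contrast of the nucleus with the other fractions 1898 genes were higher and 1330 lower, in that of the cytosol 1068 higher and 1164 lower, and in that of the membrane 1 was lower. Leaving out replicate 3 brought the first count to 30, and that library's nucleus held 40.0% of its T bases in introns against 29.1% to 30.2% in the other 3 nuclear libraries, whose part was not tested.

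The named genes with such a difference, on the log2 scale, were Slc6a9 (2.04), Plec (2.00), Pom121 (1.94), Rpl39 (-1.96), Pfdn4 (-1.59) and Rps3 (-1.58) for the nucleus. For the cytosol they were Lefty2 (2.22), Itgb3bp (1.35), Ctbs (1.29), Lrrn2 (-3.50), Mmp2 (-3.34) and Mir5125 (-3.29), and for the membrane Lefty2 (-1.96). No group held the 4 or more libraries needed to test for a library that stands apart.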

How the results depend on the processing

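Of 159 counts and medians recomputed under alternatives, 103 stayed within the limits set for them and 56 moved. Of 2349 values of named genes, 2173 kept direction and call, 160 lost and 14 gained the call, and 2 reversed, both of Flna, at 0.29 in the counts summed per culture and 0.043 in those summed at equal depth. These account for 62 and 24 of the lost calls. With culture as a random replicate block (correlation 0.00059) the joint count was 4906, and the fixed replicate block gave 4296 for the interaction, 3596 for the cytosol contrast and 32 for the membrane contrast. Summed per culture the joint count was 1283, and 3196 at equal depth. Over 1 on the log2 scale it was 2038, with 797 (nucleus), 2892 (cytosol), 2187 (membrane), 1582 (whole cells) and 230 in all 4 fractions. Whole cells fitted alone gave 1815, fewer than the nucleus fitted alone (1940). DESeq2 gave 3790 for the interaction, 33 for the membrane and 3 for the whole-cell contrast. With no filter on low counts the membrane contrast had 4 and the whole-cell contrast 9 calls, with length offsets the cytosol contrast had 3549 and the membrane contrast 5, and scaling within each fraction, an alternative added after seeing the data, left 0 in the membrane contrast. Leaving out 1 replicate gave 4003 to 4478 joint calls, 323 to 1093 (nucleus), 2179 to 5554 (cytosol), 1818 to 3574 (membrane), 891 to 2960 (whole cells), 111 to 278 in all 4 fractions and 30 to 1929 for the interaction. The contrasts ranged from 328 to 3373 (nucleus), 1 to 1610 (cytosol), 0 to 3 (membrane) and 0 to 39 (whole cells), the repeat at other times from 98.7% to 99.3% with the same sign and from 81.7% to 86.0% called, and the chromosome range from 0.133 to 0.184. Without the 15 min or the 30 min libraries 84.9% and 85.3% were called the same way, and genes of at least 10 CPM gave a chromosome range of 0.1102. The causes were not tested. List members under the filter on low counts could not be tested at this depth.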
